A study of Mus musculus with 12 samples.

Results

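The nuclear genes of the respiratory chain were followed on Affymetrix Mouse Exon 1.0 ST arrays through 3 stages of differentiation of mouse embryonic stem (ES) cells. Members were the gene-level rows whose single platform symbol begins with Nduf plus a, b, c, s or v and a digit, with Uqcr, or with Cox4 to Cox8 and a letter, or is Sdha, Sdhb, Sdhc or Sdhd. This rule found 46 genes of 14847 with such a row, each with exactly 1 row: 27 of complex I, 4 of complex II, 5 of complex III and 10 of complex IV. The stages, each with 2 samples, were day 0 (ES cells, undifferentiated), day 7 (embryonic bodies, the aggregates in which such cells start to differentiate) and day 14 (bodies labelled cardiac, here cardiac bodies), all grown in DMEM-based medium with 10% serum. The labels give no strain, cell line or genotype. Nor do they say that the samples of a stage came from different cultures, and the spread behind each p-value may therefore be technical only. All values are log2 array signals. A change is a difference of log2 means with the standard error of the limma fit (n = 2 per stage). The exception is a change of the difference between 2 genes, whose standard error comes only from the 2 samples of each stage compared, without limma. The term "called" means a Benjamini-Hochberg adjusted p under 0.05 over all 23332 gene-level rows, or clusters. The signals of different genes depend on their probes and are not set against each other as amounts.

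Complex I passes electrons from NADH, and complex II from succinate, to ubiquinone. Complex III passes them on to cytochrome c, and complex IV, cytochrome c oxidase, to oxygen. Complexes I, III and IV pump protons, and the gradient drives ATP synthase. Most subunits are encoded in the nucleus and made in every cell with mitochondria, but several subunits of complex IV have tissue isoforms: Cox6a2 and Cox8b are the forms of rodent heart and skeletal muscle, beside the common Cox6a1 and Cox8a. Heart muscle is among the tissues richest in mitochondria.

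Of 70 protein-coding genes that match the rule in the reference gene table, 46 had a gene-level row of 1 symbol, 14 had such rows at the exon level only, and 10 had none at either level and are not analysed here. The last group includes the muscle isoform Cox7a1 and the tissue isoforms Cox6b2, Cox8c and Ndufa4l2. Sample medians over all clusters lay between 6.47 and 6.79. All 7 measured cardiomyocyte markers were called higher in cardiac bodies than in ES cells, with a median change of 5.72. Their summed signal was 8.37 and 8.64 at day 0, 8.85 and 8.89 at day 7, and 14.72 and 14.46 at day 14. The 8 ES cell markers had a summed signal of 14.84 and 14.96 at day 0, 11.92 and 12.18 at day 7, and 14.18 and 14.43 at day 14. The cardiac bodies thus carried both cardiomyocyte and ES cell transcripts. In such bulk samples, fewer cells of a type and less RNA per cell cannot be told apart.

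The muscle isoforms of cytochrome c oxidase gave the largest changes among the members. Cox6a2, the muscle form of subunit 6a, had 6.85 and 6.77 at day 0, 6.64 and 6.14 at day 7, and 11.92 and 11.44 at day 14. Both cardiac body samples lay above the other 4, which lay close together. The change was 4.87 ± 0.26 at day 14 against day 0, or 29.3-fold (limma, adjusted p = 0.00192), and 5.29 ± 0.26 against day 7 (adjusted p = 0.00279). Cox8b, the muscle form of subunit 8, had 5.91 and 5.33 at day 0, 5.58 and 5.96 at day 7, and 11.52 and 10.47 at day 14. Its cardiac body samples were also far above the rest, although they differed by 1.05 from each other. The change was 5.38 ± 0.41 at day 14 against day 0, or 41.6-fold (limma, adjusted p = 0.00459), and 5.23 ± 0.41 against day 7 (adjusted p = 0.00626). At day 7 against day 0, Cox6a2 differed by -0.42 ± 0.26 and Cox8b by 0.15 ± 0.41, and neither was called. Both calls at day 14 held in every fit without 1 of the samples. Every probe set showed the difference at day 14 against day 0, from 3.80 to 6.46 for the 5 of Cox6a2 and from 5.07 to 6.77 for the 3 of Cox8b.

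The common partners moved little over the same stages. Cox6a1 had 10.77 and 10.72 at day 0, 10.47 and 10.59 at day 7, and 11.25 and 10.96 at day 14, a difference of 0.37 ± 0.19 at day 14 against day 0 that was not called (limma, adjusted p = 0.394). The per-sample difference Cox6a2 minus Cox6a1 was 0.67 and 0.48 in cardiac bodies, against -3.92 and -3.95 in ES cells. It was thus higher by 4.51 ± 0.10 in the cardiac bodies, and no sample of either stage came near the other stage. The exact 2-sided permutation test gave p = 0.333, the smallest that 2 samples against 2 allow. Cox8a has a row at the exon level only, where the mean of its 4 probe sets was 12.51 and 12.56 at day 0, 12.29 and 12.23 at day 7, and 12.88 and 12.59 at day 14. On the same exon-level means, Cox8b minus Cox8a was -1.55 and -2.33 in cardiac bodies, against -7.52 and -7.53 in ES cells, a change of 5.59 ± 0.39 (exact permutation p = 0.333, again the smallest possible).

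**Figure D1:**
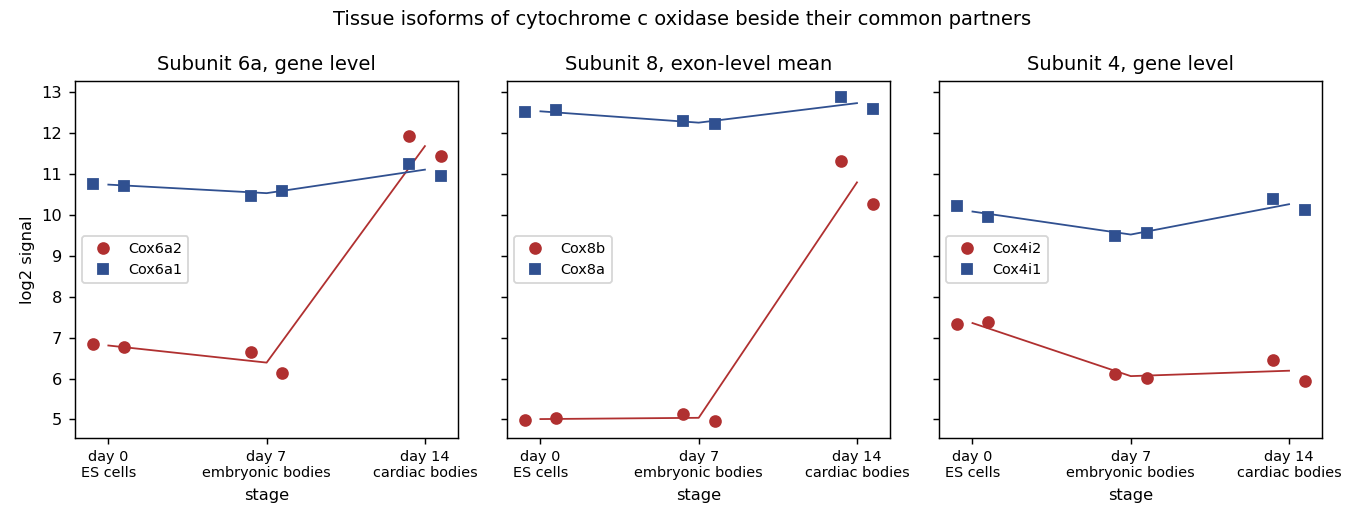
The log2 signal (y axis) of 3 tissue isoforms of cytochrome c oxidase and their common partners is plotted by stage (x axis), with a point per sample and lines through the stage means. Cox6a2 and Cox8b are high in the 2 cardiac body samples only, Cox4i2 is highest in the 2 ES cell samples, and the common partners stay within a narrow band.

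The promoters of the muscle isoform Cox8b, of its common partner Cox8a and of Cox6a1 are shown because these genes behave so differently. That of Sdhd was picked from the motif scan, for its matches to 3 different motifs. The Ndufb7 window also holds 3, and that of Sdhd is the only member window with an ERR match. Each window runs from 250 bases before to 50 after the start in RefSeq, build GRCm38.p6, and is printed 5′ to 3′ on the gene's own strand, here the minus strand for all 4. Capitals mark matches, on either strand, to 5 short motifs named after the factors or elements that they resemble. For the ETS family the motif searched was CCGGAAG, for NRF1 it was GCGCANGCG, for the oestrogen-related receptors (ERR) TCAAGGTCA and for MEF2 CTANNNNTA. N stands for any base, so the middle of the MEF2 string was left free. The promoter element known as the TATA box was searched as TATAAA. The only overlapping matches in these windows are the first 2 NRF1 matches of Cox6a1, shifted by 1 base. The windows are chr7:140900397-140900696 for Cox8b, chr19:7217567-7217866 for Cox8a, chr5:115348909-115349208 for Cox6a1 and chr9:50603800-50604099 for Sdhd.
Cox8b: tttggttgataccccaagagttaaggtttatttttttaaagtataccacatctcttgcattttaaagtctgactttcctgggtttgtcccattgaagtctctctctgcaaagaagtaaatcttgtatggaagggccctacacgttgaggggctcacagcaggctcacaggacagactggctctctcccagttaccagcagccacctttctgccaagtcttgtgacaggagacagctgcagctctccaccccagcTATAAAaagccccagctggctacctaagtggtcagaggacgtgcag
Cox8a: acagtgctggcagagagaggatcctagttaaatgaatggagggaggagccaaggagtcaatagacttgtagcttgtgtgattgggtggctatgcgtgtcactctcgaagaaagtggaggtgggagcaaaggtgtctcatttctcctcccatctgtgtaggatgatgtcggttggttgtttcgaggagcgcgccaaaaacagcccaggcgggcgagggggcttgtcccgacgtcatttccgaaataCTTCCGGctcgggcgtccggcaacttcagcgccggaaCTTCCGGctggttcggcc
Cox6a1: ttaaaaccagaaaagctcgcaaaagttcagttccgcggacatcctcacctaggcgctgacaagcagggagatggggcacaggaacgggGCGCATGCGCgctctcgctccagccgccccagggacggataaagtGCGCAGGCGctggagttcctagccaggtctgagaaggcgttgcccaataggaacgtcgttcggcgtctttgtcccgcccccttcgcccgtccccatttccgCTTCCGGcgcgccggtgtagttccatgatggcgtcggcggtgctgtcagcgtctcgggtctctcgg
Sdhd: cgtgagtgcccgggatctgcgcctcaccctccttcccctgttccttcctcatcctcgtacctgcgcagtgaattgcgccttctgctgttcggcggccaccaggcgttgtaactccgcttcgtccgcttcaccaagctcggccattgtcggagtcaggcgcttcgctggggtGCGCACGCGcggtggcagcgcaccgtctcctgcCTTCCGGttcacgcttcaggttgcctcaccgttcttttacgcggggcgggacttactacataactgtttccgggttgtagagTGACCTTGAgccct
Cox8b held 1 TATA match, at bases 5 to 10 after the start, and none of the other motifs. Cox8a held 2 ETS matches, Cox6a1 held 3 NRF1 matches and 1 ETS match, and Sdhd held 1 match each to NRF1, ETS and ERR. The GC content was 48.3% for Cox8b, 56.0% for Cox8a, 63.0% for Cox6a1 and 62.0% for Sdhd. Of the 46 members, 37 had a window. NRF1 matches occurred in 10 of 39 member windows (25.6%), against 6.25% of all 32851 windows. ETS matches occurred in 6 (15.4%, against 8.86%), ERR in 1 (2.56%, against 0.423%), TATA in 7 (17.9%, against 13.6%) and MEF2 in 3 (7.69%, against 21.0%). The median GC content was 57.3% in the member windows, against 52.7% over all windows. The NRF1 and ETS letters are mostly G and C, the fixed letters of MEF2 and those of TATA mostly A and T. The counts were not adjusted for this. With its middle left free, the MEF2 string need not mark a MEF2 site, and its share is not a share of such sites. The NRF1 and MEF2 letters had been shortened by 1 letter after a first count was seen, so these shares are not a test. A match is only a string of letters, and these arrays measured no factor at these sites.

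Cox4i2, an isoform of subunit 4 known from lung and for its induction by low oxygen, went the other way. It had 7.33 and 7.38 at day 0, 6.10 and 6.01 at day 7, and 6.44 and 5.94 at day 14, so that both ES cell samples lay above the other 4. The fall of 1.30 ± 0.22 at day 7 against day 0 was called (limma, change of -1.30, adjusted p = 0.0236), and each of its 6 probe sets was lower, by -2.07 to -0.06. The call did not hold without any single sample of these stages, and the change there was -1.34 to -1.25. Such a fit leaves 1 sample in a stage, and it called fewer clusters in general. At day 14 against day 0 the difference was -1.17 ± 0.22 (adjusted p = 0.0585), and at the exon level it was called (-0.995 ± 0.23, adjusted p = 0.038). Its common partner Cox4i1 had 10.22 and 9.95 at day 0, 9.48 and 9.56 at day 7, and 10.39 and 10.13 at day 14, with no call. Cox4i2 minus Cox4i1 was lower by -1.34 ± 0.20 in cardiac bodies than in ES cells (exact permutation p = 0.333, the smallest possible).

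The remaining tissue isoforms and partners of complex IV showed no call. Cox7b2, an isoform of subunit 7b known from testis, stayed between 2.23 and 2.73 in all 6 samples. This is below the 25th percentile of all values, 4.86, so it is the 1 member of 46 that a filter on low values removed. Cox7b, the common form, had 6.49 and 6.001 at day 0, 5.46 and 5.78 at day 7, and 6.86 and 6.54 at day 14 (1.08 ± 0.25 at day 14 against day 7, limma adjusted p = 0.0999). Cox7a2, the common partner of Cox7a1, had 7.49 and 7.50 at day 0, 7.01 and 7.21 at day 7, and 7.36 and 7.62 at day 14. Cox6b1, the common subunit that bridges the oxidase dimer, had 10.76 and 10.67 at day 0, 11.12 and 10.95 at day 7, and 11.68 and 11.53 at day 14. It was the only one of these genes without the lower signal at day 7, and its difference of 0.89 ± 0.18 at day 14 against day 0 was just short of the threshold (limma, adjusted p = 0.0665).

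Across the whole chain, signals were slightly lower at day 7 than at day 0 and higher at day 14 than at both, but for almost every single gene outside the muscle isoforms the difference did not pass the test. In cardiac bodies against ES cells, 2 of 46 members were called higher, Cox6a2 and Cox8b, where 2.63% of all clusters were, and 0 were called lower, where 0.686% were. With an unadjusted p under 0.05 these limma counts were 13 and 1, against 9.4% and 7.98% of all clusters. Between day 7 and day 0, 0 members were called higher, where 5.35% of clusters were, and 1, Cox4i2, was called lower, where 5.28% were. The unadjusted counts were 0 and 12, against 12.4% and 13.3%. In cardiac bodies against embryonic bodies, 4 were called higher, Cox6a2, Cox8b, Uqcrq and Ndufb9, where 2.11% of clusters were, and 0 were called lower, where 1.02% were. The unadjusted counts were 36 and 0, against 9.53% and 8.16%. The adjusted shares are thus near the background once the muscle isoforms are set aside, while the unadjusted counts lean to one side in each comparison.

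The direction was shared widely. The change at day 14 against day 0 was above 0 in 41 of 46 members, with 46.8% of all clusters above 0, and its median was 0.39 (1.31-fold), against -0.03 over all clusters. At day 7 against day 0 it was above 0 in 6 of 46, with 47.9% of clusters above 0, and the median was -0.27 (0.827-fold), against -0.02. For day 14 against day 7 it was above 0 in 45 of 46, with 51.1% of clusters above 0, and the median was 0.68 (1.6-fold), against 0.01. Ndufb11, an accessory subunit, was the exception, with 6.02 and 6.39 at day 0, 6.82 and 6.65 at day 7, and 6.35 and 6.84 at day 14. Its direction depended on the summary: the mean of its 7 exon-level probe sets differed by 0.59 ± 0.20 at day 14 against day 7 (limma, unadjusted p = 0.0193, adjusted p = 0.126), and at that level all 46 members were above 0 in this comparison. When each sample was centred on its own median, the median of all clusters shifted to -0.16 at day 14 against day 0 and to -0.11 at day 7 against day 0. The members' medians shifted with it, to 0.25 and -0.36, and 37, 5 and 45 members then had a change above 0 in the 3 comparisons. Quantile normalization gave members' medians of 0.34, -0.27 and 0.66 in the same comparisons, against -0.06, -0.06 and 0.01 over all clusters, with 41, 5 and 45 members above 0.

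Both cardiac body samples lay above both ES cell samples in 33 of 46 members, as in 21.9% of all clusters, and below both in 1, Cox4i2 (24.1% of clusters). Both embryonic body samples lay below both ES cell samples in 33 of 46 (30.0% of clusters) and above both in 3 (26.5%). Both cardiac body samples lay above both embryonic body samples in 43 of 46 (25.8%) and below both in 0 (22.3%). The full order, with both day 7 samples lowest, both day 0 samples between and both day 14 samples highest, held in 23 of 46 members, against 2.1% of all clusters. These 23 were 14 of 27 genes of complex I, 3 of 4 of complex II, 3 of 5 of complex III and 3 of 10 of complex IV. The 3 comparisons share samples and are not independent of each other.

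**Figure D2:**
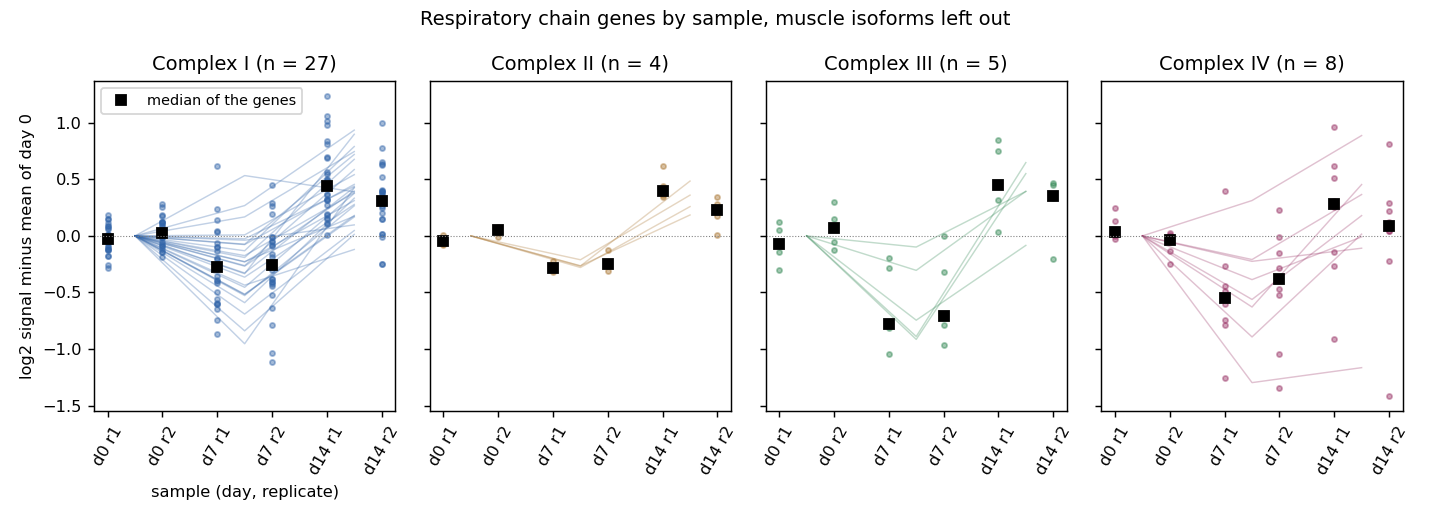
The log2 signal of each member minus its day 0 mean (y axis) is plotted by sample (x axis: day and replicate) for the 4 complexes, without Cox6a2 and Cox8b. Coloured points are genes, thin lines join a gene's stage means and black squares are the median of the genes. The medians are below 0 in both day 7 samples and above 0 in both day 14 samples in each panel.

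Complex I, the NADH dehydrogenase, has nuclear core subunits around its flavin and iron-sulphur clusters and many accessory subunits beside them. None of the 27 genes was called by limma at day 14 against day 0 or at day 7 against day 0, with medians of 0.39 and -0.26. With an unadjusted p under 0.05, 8 of the 27 were higher in the first of these and 6 lower in the other. Of all clusters, 9.4% and 13.3% were. The 5 core genes, Ndufs1, Ndufs7, Ndufs8, Ndufv1 and Ndufv2, had medians of 0.18 and -0.52, and the 22 accessory genes 0.41 and -0.25. That difference between core and accessory genes was not tested. Ndufb9, an accessory subunit, had 9.49 and 9.73 at day 0, 9.32 and 9.23 at day 7, and 10.63 and 10.39 at day 14. Its cardiac body samples lay above the other 4. The change of 1.23 ± 0.19 at day 14 against day 7 was called (limma, adjusted p = 0.0373) and appeared in each of its 8 probe sets, from 1.08 to 1.77. It was not called with median centring (limma, adjusted p = 0.0523), nor in any fit without 1 of the samples. The change in those fits was 1.11 to 1.35. They leave 1 sample in a stage and called fewer clusters in general.

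Ndufs8, a core subunit that carries 2 iron-sulphur clusters, had 11.65 and 11.28 at day 0, 10.59 and 10.42 at day 7, and 12.16 and 11.61 at day 14. Its embryonic body samples were the lowest, while 1 cardiac body sample lay within the range of the ES cells. Its differences were -0.95 ± 0.26 at day 7 against day 0 (limma, adjusted p = 0.0798) and 1.38 ± 0.26 at day 14 against day 7 (adjusted p = 0.0594), the lowest and the highest of complex I in those comparisons. Ndufb7, an accessory subunit, had 8.38 and 8.08 at day 0, 8.47 and 8.53 at day 7, and 9.47 and 8.87 at day 14, and its difference of 0.94 ± 0.26 at day 14 against day 0 was the highest of the complex (limma, adjusted p = 0.141). Ndufs4, an accessory subunit whose loss in mice causes a fatal brain disease, had the lowest, at -0.12 ± 0.19. Ndufb11, described above, had the highest at day 7 against day 0, at 0.53 ± 0.25 (limma, adjusted p = 0.248), but -0.05 ± 0.20 by its exon-level mean (adjusted p = 0.899).

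Complex II, succinate dehydrogenase, is also an enzyme of the citric acid cycle. All 4 of its genes had the lower day 7 and the higher day 14 signal, within a narrow range and with no call. With an unadjusted p under 0.05 by limma, 1 was higher at day 14 against day 0 and 3 at day 14 against day 7. Of all clusters, 9.4% and 9.53% were, and 4 genes are too few to set against these shares. Sdha, the flavoprotein, had 10.78 and 10.76 at day 0, 10.45 and 10.53 at day 7, and 11.11 and 10.94 at day 14. Sdhb, the iron-sulphur protein, had 8.05 and 8.19 at day 0, 7.90 and 7.81 at day 7, and 8.74 and 8.47 at day 14. In both genes the samples of the 3 stages do not overlap. Sdhc, a membrane anchor, had 10.74 and 10.90 at day 0, 10.55 and 10.57 at day 7, and 11.18 and 10.83 at day 14. Sdhd, the other anchor, whose promoter is printed above, had 10.04 and 10.10 at day 0, 9.77 and 9.94 at day 7, and 10.51 and 10.35 at day 14. Only in Sdhc did a cardiac body sample fall within the ES cell range. The differences at day 7 against day 0 were all between -0.28 and -0.21, those at day 14 against day 0 between 0.18 and 0.48, and those at day 14 against day 7 between 0.45 and 0.75. The largest, that of Sdhb at day 14 against day 7 (0.75 ± 0.19), had an adjusted p of 0.114 by limma.

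Complex III, the cytochrome bc1 complex, had the lowest median of the 4 complexes at day 7 against day 0, at -0.75 over 5 genes, and 0.70 at day 14 against day 7. Its genes with exon-level rows only, Uqcrb, Uqcrh and Uqcr11, had 0.41, -0.16 and -0.41 at day 7 against day 0. The complexes were not tested against each other. Uqcrq, a small subunit of the complex, had 8.99 and 9.14 at day 0, 8.03 and 8.28 at day 7, and 9.82 and 9.42 at day 14. The 3 stages did not overlap, with day 7 lowest and day 14 highest. The change of 1.47 ± 0.22 at day 14 against day 7 was called (limma, adjusted p = 0.0323), and its 6 probe sets showed 0.83 to 1.96. The call did not hold in any fit without 1 of the samples, where the change was 1.27 to 1.67. Those fits leave 1 sample in a stage and called fewer clusters in general. At day 7 against day 0 Uqcrq had the lowest difference of the complex, -0.92 ± 0.22 (limma, adjusted p = 0.0559).

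Uqcr10, another small subunit, had 9.31 and 9.90 at day 0, 8.79 and 8.64 at day 7, and 10.45 and 10.05 at day 14. The stages again did not overlap, although its ES cell samples lay 0.60 apart. Its difference of 1.54 ± 0.27 at day 14 against day 7 missed the threshold narrowly (limma, adjusted p = 0.0501), and that at day 14 against day 0 was 0.65 ± 0.27 (adjusted p = 0.304), the highest of the complex. Uqcrc1, a core protein without redox centre, had 12.31 and 12.07 at day 0, 11.41 and 11.48 at day 7, and 12.22 and 11.99 at day 14. Its day 14 samples overlapped those of the ES cells, with a difference of -0.08 ± 0.19, and its day 7 samples were the lowest.

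Complex IV without the muscle isoforms had medians of -0.47 at day 7 against day 0, 0.10 at day 14 against day 0 and 0.57 at day 14 against day 7, over 8 genes. With Cox6a2 and Cox8b the 10 genes ranged from -1.17 to 5.38 at day 14 against day 0, the widest range of the 4 complexes. The 42 members that are not tissue isoforms ranged from -0.12 to 0.94 in that comparison, and 39 of them were above 0.

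**Figure D3:**
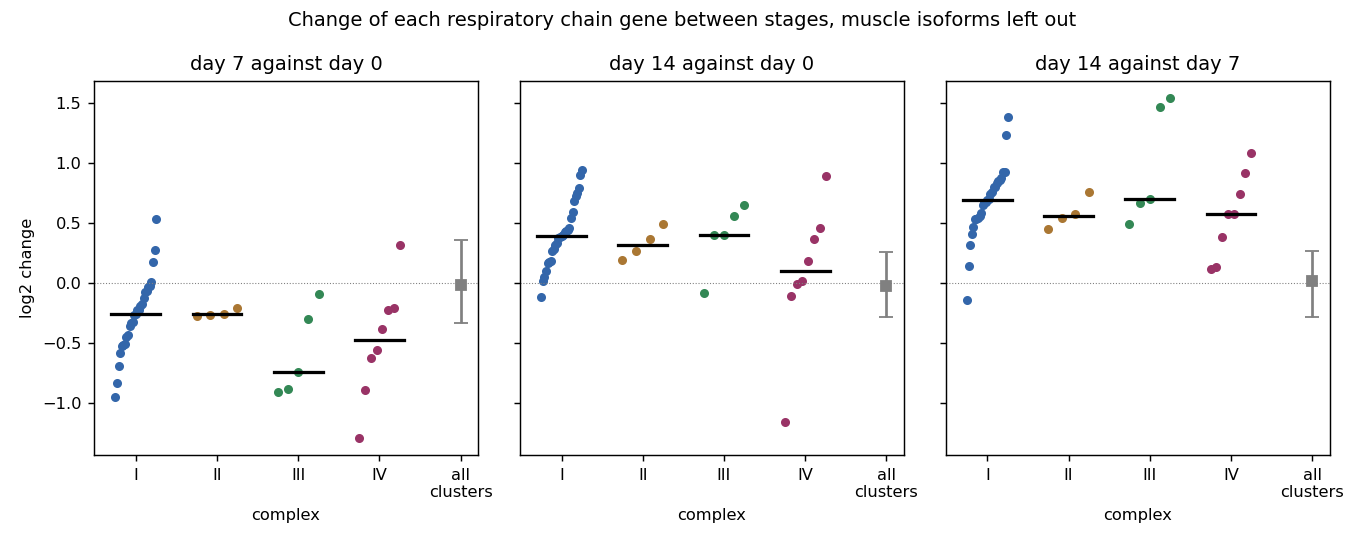
The log2 change of each member (y axis) is plotted by complex (x axis) for 3 comparisons, without Cox6a2 and Cox8b. Points are genes, black bars are medians, and the grey square with its bar is the median and the range from the 25th to the 75th percentile of all clusters. Of the 44 points, 5 are above 0 at day 7 against day 0 and 43 at day 14 against day 7.

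The exon-level table gave a further reading of the same samples. The mean of a gene's probe sets was taken as its level and tested over 16358 genes. The sign equalled that of the gene-level change in 45 of 46 members in each comparison. By this reading 4 members were called higher at day 14 against day 0 (Cox6a2, Cox8b, Ndufb7 and Cox6b1; 6.22% of all genes) and 1 lower (Cox4i2; 2.3%). At day 7 against day 0, 6 were called lower, Cox4i2, Cox5a, Ndufs6, Ndufs8, Ndufv1 and Uqcrc1 (9.98% of all genes), and 0 higher (9.18%). In cardiac bodies against embryonic bodies, 11 were called higher, Cox5a, Cox6a2, Cox7b, Cox8b, Ndufb8, Ndufb9, Ndufs8, Ndufv1, Sdhb, Uqcr10 and Uqcrq (5.87% of all genes), and 0 lower (2.87%).

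The 14 matching genes with exon-level rows only were Cox5b, Cox6c, Cox7a2l, Cox7c, Cox8a, Ndufa10, Ndufa11, Ndufa4, Ndufb4, Ndufs3, Ndufs5, Uqcr11, Uqcrb and Uqcrh. Their change was above 0 in 13 at day 14 against day 0, in 3 at day 7 against day 0 and in 14 at day 14 against day 7, with medians of 0.38, -0.15 and 0.59. Of all 16358 genes at this level, 46.7%, 43.2% and 57.0% were above 0 in the same comparisons, with medians of -0.03, -0.07 and 0.06. Uqcrb, which helps to bind ubiquinone in complex III, had exon-level means of 10.48 and 11.02 at day 0, 11.32 and 10.99 at day 7, and 11.71 and 11.93 at day 14. Its cardiac body samples were the highest, and it was called higher at day 14 against day 0 (1.07 ± 0.25, limma adjusted p = 0.04). Ndufa11, an accessory subunit of complex I, had 7.45 and 7.76 at day 0, 6.66 and 6.81 at day 7, and 7.96 and 7.80 at day 14. Both day 7 samples were lowest, and it was called at day 7 against day 0 (-0.88 ± 0.20, limma adjusted p = 0.0217) and at day 14 against day 7 (1.15 ± 0.20, adjusted p = 0.0147). Ndufb4, another accessory subunit, was called in the same 2 comparisons (-0.75 ± 0.18 and 0.93 ± 0.18, limma adjusted p = 0.0275 and 0.0227). Uqcr11, a small subunit of complex III, was called at day 14 against day 7 (1.24 ± 0.21, limma adjusted p = 0.0128). Ndufa4, now counted to complex IV, had 1.03 ± 0.26 in that comparison (limma, adjusted p = 0.0515), and Cox7a2l, which takes part in joining complexes III and IV, had 0.07 ± 0.20.

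Exon usage, meaning how far a probe set's log2 signal lies from its gene's median in the same sample, showed no call by limma, here a usage difference of at least 1 whose adjusted p is under 0.05, among probe sets that passed a filter on low values (0.0% of 98800 probe sets at day 14 against day 0, of 95195 at day 7 against day 0 and of 100538 at day 14 against day 7). The members held 275, 269 and 272 of these probe sets, of which 12, 16 and 21 had an unadjusted p under 0.05, or 4.36%, 5.95% and 7.72%, against 5.51%, 8.0% and 4.61% of all probe sets tested. Without the filter, 157 of 205007 probe sets (0.0766%) were called at day 14 against day 0, and with the gene's mean as the centre 1 was called in that comparison (0.00106%) and 2 at day 7 against day 0 (0.00219%). None of these belonged to a member.

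Genes around the chain were listed for comparison. Of 16 listed genes of ATP synthase 8 were measured and none was called by limma (unadjusted p under 0.05 in 1, 0 and 2), with medians of -0.26 at day 7 against day 0, 0.20 at day 14 against day 0 and 0.23 at day 14 against day 7. Cyc1, the cytochrome c1 of complex III, which the symbol rule leaves out, had 9.40 and 9.45 at day 0, 8.51 and 8.58 at day 7, and 9.62 and 9.54 at day 14. It was called at day 7 against day 0 (-0.88 ± 0.16, limma adjusted p = 0.0293) and at day 14 against day 7 (1.04 ± 0.16, adjusted p = 0.0384). Of 40 assembly factors 31 were measured. Only Ecsit, an assembly factor of complex I, was called, lower at day 7 against day 0 (-1.17 ± 0.18, limma adjusted p = 0.0182), and the median of the list at day 14 against day 0 was 0.05. Of 18 citric acid cycle and pyruvate dehydrogenase genes 16 were measured, with medians of -0.32, 0.33 and 0.62 in the same order of comparisons as for ATP synthase. Idh3a, a subunit of isocitrate dehydrogenase, was called at day 7 against day 0 (-1.07 ± 0.21, limma adjusted p = 0.0321) and at day 14 against day 7 (1.46 ± 0.21, adjusted p = 0.0279). Pdha1, a subunit of pyruvate dehydrogenase, was called lower at day 7 against day 0 (-1.05 ± 0.17, adjusted p = 0.0209), and Ogdh, of the oxoglutarate dehydrogenase, higher at day 14 against day 7 (1.40 ± 0.24, adjusted p = 0.0491).

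Of 16 regulators of mitochondrial genes 14 were measured. Of these, 2 were called higher and 1 lower at day 14 against day 0, 0 higher and 2 lower at day 7 against day 0, and 5 higher and 0 lower at day 14 against day 7. Esrrg, an orphan nuclear receptor abundant in heart, had 5.32 and 4.96 at day 0, 5.25 and 5.40 at day 7, and 7.15 and 6.86 at day 14. It was higher by 1.87 ± 0.22 at day 14 than at day 0 (limma, adjusted p = 0.0135). Esrrb, a receptor of the same family and also 1 of the 8 ES cell markers, had 10.59 and 10.38 at day 0, 6.41 and 6.43 at day 7, and 9.11 and 9.40 at day 14. It was lower by -4.06 ± 0.19 at day 7 than at day 0 (limma, adjusted p = 0.00265). Ppargc1b, a coactivator of mitochondrial genes, had 7.35 and 7.70 at day 0, 6.76 and 6.67 at day 7, and 8.42 and 8.20 at day 14, and was called at day 14 against day 7 (1.60 ± 0.20, limma adjusted p = 0.022). Its relative Ppargc1a was called in both comparisons with day 14 (5.47 ± 0.24 against day 0 and 5.16 ± 0.24 against day 7, limma adjusted p = 0.00152 and 0.00274). Nrf1 and Gabpa, whose sites resemble the NRF1 and ETS letters searched above, were not called in any comparison, with changes at day 14 against day 0 of -0.39 for Nrf1 and -0.54 for Gabpa.

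Other transcripts moved with these stages. The lower signal at day 7 went with the ES cell markers, of which 7 of 8 were called lower at day 7 against day 0 (median -3.11) and 6 of 8 higher at day 14 against day 7 (median 2.47). The higher signal at day 14 went with the cardiomyocyte markers, of which 7 of 7 were called higher against both earlier stages. It also went with 2 of 4 measured markers of visceral endoderm and fetal liver, called higher at day 14 against day 0 (list median 4.76) and against day 7 (2.90). These were Alb, serum albumin, and Afp, alpha-fetoprotein, with changes of 5.79 ± 0.19 and 5.73 ± 0.33 at day 14 against day 0 (limma, adjusted p = 0.000772 and 0.00241). The list's summed signal was 8.08 and 7.68 at day 0, 12.06 and 8.23 at day 7, and 11.82 and 11.77 at day 14. At day 7 this sum was mostly that of Ttr (11.98 and 7.64). Of 6 endothelial markers, 5 were called higher and 1 lower at day 7 against day 0 (median 2.81), and 0 higher and 3 lower at day 14 against day 7 (median -2.71), with a summed signal of 9.32 and 9.45 at day 0, 10.65 and 11.87 at day 7, and 9.28 and 9.87 at day 14. Of 6 smooth muscle markers, 2 were called higher at day 7 against day 0 (median 0.39) and 1, the smooth muscle actin Acta2, at day 14 against day 0 (7.13 ± 0.34, limma adjusted p = 0.0018, list median 1.16). Their summed signal was 9.002 and 9.02 at day 0, 13.01 and 12.29 at day 7, and 13.10 and 12.89 at day 14. At day 7 (12.91 and 12.02) and day 14 (12.87 and 12.73) this sum was mostly that of Acta2. The part of these marker genes in the members' differences was not tested. Cox6a2 and Cox8b are known from skeletal muscle as well, and Cox8b from brown fat. Of 8 skeletal muscle markers 0 were called at day 14 against day 0 by limma (unadjusted p under 0.05 in 1, which was lower), and their summed signal was 9.09 and 8.87 in cardiac bodies, against 9.21 and 9.11 in ES cells. Of 6 brown fat markers 0 were called in that comparison (unadjusted p under 0.05 in 1 higher and 2 lower), with a summed signal of 7.98 and 7.92 in cardiac bodies, against 7.63 and 7.72 in ES cells. At day 14 against day 7, 0 skeletal muscle markers were called by limma (unadjusted p under 0.05 in 1, which was higher). Their changes ran from 0.16 to 1.24 with a median of 0.22, and their summed signal at day 7 was 8.50 and 8.57. In that comparison 1 brown fat marker, Prdm16, was called higher (1.05 ± 0.17, limma adjusted p = 0.0388) and 0 lower. With an unadjusted p under 0.05 by limma, 2 brown fat markers were higher and 0 lower. The changes of this list ran from -0.34 to 1.06 with a median of 0.05, and its summed signal at day 7 was 7.37 and 7.33. Ucp1, the defining gene of brown fat, had 4.84 and 4.65 in cardiac bodies, against 4.63 and 4.72 in ES cells.

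Samples of a stage also differed among themselves. At day 14, replicate 1 lay above replicate 2 in 38 of 46 members, with a median difference of 0.23, whereas over all clusters it did so in 41.9% with a median of -0.09. In the same pair, 5 of 7 cardiomyocyte markers were higher in replicate 1 (median 0.26) and 0 of 8 ES cell markers were (median -0.24). Replicate 1 was also higher in 6 of 6 smooth muscle markers (median 0.17) and in 6 of 8 skeletal muscle markers (0.30). It was higher in 3 of 4 markers of visceral endoderm and fetal liver (0.17), 4 of 6 of brown fat (0.11) and 3 of 6 of endothelium (-0.09). The part of any cell type in the members' difference was not tested. Without day 14 replicate 1 the members' median change at day 14 against day 0 was 0.30, and without replicate 2 it was 0.44. At day 7 and day 0 replicate 1 was above replicate 2 in 19 and 23 of 46 members. The day 7 samples differed in the summed signal of the visceral endoderm and fetal liver markers (12.06 and 8.23) and of the endothelial markers (10.65 and 11.87). The first of these differences lay mostly in Ttr (11.98 and 7.64), while Alb (4.57 and 4.35) and Afp (4.86 and 3.93) were low in both samples. The member medians of the day 7 samples relative to day 0, over the 44 members without Cox6a2 and Cox8b, were -0.31 and -0.27.

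**Figure D4:**
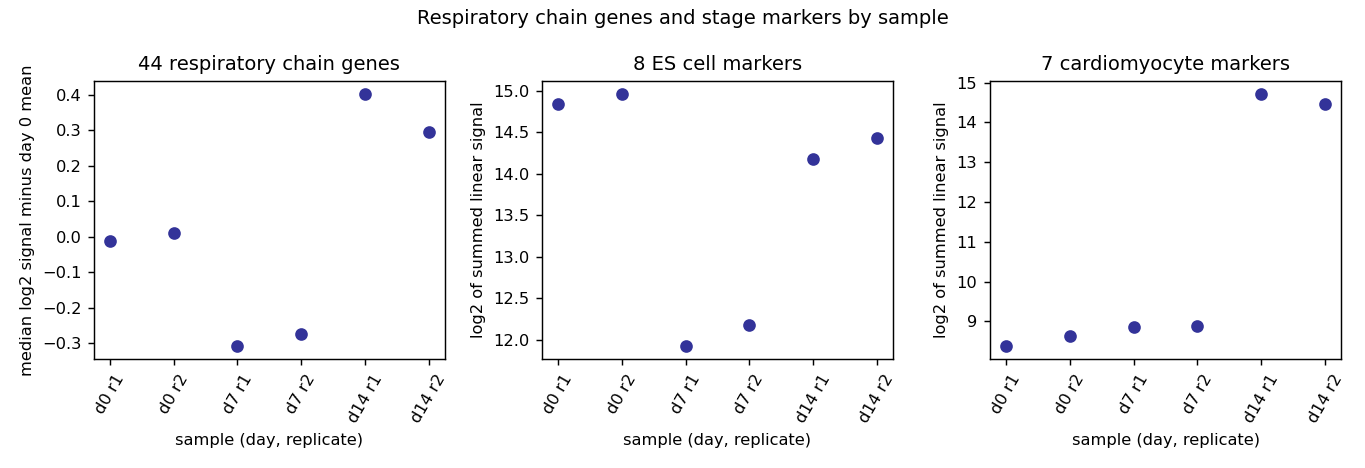
By sample (x axis: day and replicate), the left panel shows the median over 44 members of the log2 signal minus the gene's day 0 mean, and the other panels show log2 of the summed linear signals of 8 ES cell and 7 cardiomyocyte markers. The members and the ES cell markers are both lowest in the 2 day 7 samples, and the members are highest, at 0.40 and 0.30, in the 2 day 14 samples.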

How the data were processed

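RNA of 6 samples was depleted of ribosomal RNA, amplified and hybridised to exon arrays, per the labels' protocols. The deposited values are log2 signals, which the authors made with RMA in Affymetrix Power Tools on core probe sets of mm9, per the submitters' processing notes and the labels. The sources used here give neither versions nor the normalization step of RMA. Such signals have a floor and a ceiling and compress fold changes, and no detection calls were available. Symbols came from the platform annotation, updated through a RefSeq gene table (GRCm38.p6, 27 symbols changed). Of the gene-level rows 14996 had 1 symbol, 1019 several and 7317 none; 4 rows with several symbols held a matching gene and were tested but not named.

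All 3 stages were fitted together by limma (version 3.58.1, lmFit with eBayes, R 4.3.3), with 2-sided tests and no filter, on the log2 values as the authors deposited them. Probe sets of the exon-level table were averaged per gene, and usage was tested in genes of 4 or more probe sets whose median reached the 50th percentile of the table in both stages. The number of arrays limits the precision. In simulated data of 23332 rows, 67, 67 and 66 rows were changed by 1, 2 and 4 (log2), in day 14 only. At day 14 against day 0 the gene-level test found 4.48%, 56.7% and 83.3% of them, and called 3 unchanged rows. The real fit called 614 rows higher and 160 lower in this comparison, so its cut on the unadjusted p was less strict. The simulated shares may therefore be too low for the real data. Named were tissue isoforms and partners, complex II and called members with a change of 1 or more. The extremes of each complex and at most 4 called genes per other list were also named. Ndufb4, Uqcrb, Uqcrh, Uqcr11, Ndufa11, Cyc1, Nrf1 and Gabpa, Ucp1, Prdm16, Alb, Afp, Ttr, Acta2 and the genes listed by name only were added after their values were seen. The labels do not say that the replicate numbers pair the samples, and the main fit took no pairs. Replicate differences correlated at 0.49 between day 14 and day 0, but at 0.09 and 0.08 between the other stages. Whether day 14 and day 0 share a replicate effect was not tested. Members and lists were chosen with earlier results of these data known. Alternatives covered scaling, filter, variance trend, gene summary, exon level, replicate block, the 2 stages compared alone and leaving out each sample. Promoter motifs were counted in RefSeq windows, and the NRF1 and MEF2 letters were shortened by 1 letter after a first count had been seen.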

Additional observations from a re-analysis of the deposited data

How the results depend on the processing

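No call or sign of a called gene reversed under any alternative, and Cox6a2 and Cox8b kept their calls at day 14 throughout. Other calls depended on the fit. At day 14 against day 0 (2 members higher, and 614 of 23332 clusters), 4 members were higher with an intensity trend (712 clusters). The mean over clusters of a gene (962 of 14847 genes) and exon-level means (1017 of 16358) also gave 4. Without the muscle isoforms 0 were higher. In the main fit 0 members were lower (160 clusters). With a low-value filter (248 of 18334 clusters), the mean over clusters (441 genes) or exon-level means (376 genes) 1 was lower. At day 7 against day 0 (1 lower), 6 were lower with the trend, 2 with the filter, 7 with the mean over clusters, 6 at the exon level, 4 with the replicate block (Cox4i2, Cox5a, Ndufs6 and Ndufs8), and 0 to 1 without 1 sample. At day 14 against day 7 (4 higher), 15 were higher with the mean over clusters, 11 at the exon level, 2 with these stages alone, 2 without the muscle isoforms and 2 without any 1 sample; with the replicate block 3 were, Cox6a2, Cox8b and Ndufs8 (adjusted p = 0.0401), while Uqcrq (0.0543) and Ndufb9 (0.0559) were not. The counts over all features shifted as well, and every fit without 1 sample called fewer clusters in each comparison than the main fit. At day 7 against day 0 the main fit called 1232 clusters lower, the trend 1477, the filter 1504 of 18334 and the block 1403. The mean over clusters called 1704 of 14847 genes lower and the exon level 1632 of 16358. At day 14 against day 7 the main fit called 493 clusters higher and the block 425. The mean over clusters called 906 genes higher, the exon level 961 and the 2 stages alone 238 clusters. The mean over clusters and the exon level test fewer genes, and the cause of none of these shifts was tested.

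Leaving out 1 sample gave medians of 0.301 to 0.441 at day 14 against day 0, -0.348 to -0.274 at day 7 against day 0 and 0.567 to 0.741 at day 14 against day 7; median centring gave 0.254 and -0.364 in the first pair. Cox6a2 minus Cox6a1 was 4.87 at day 14 against day 0 at the exon level, and without 1 sample -0.52 to 0.10 at day 7 against day 0 and 4.41 to 5.03 at day 14 against day 7. Cox8b minus Cox8a then ranged from 5.20 to 5.98 against day 0 and 4.89 to 5.67 against day 7 at day 14. Cox7a1 minus Cox7a2 was not run, since Cox7a1 had no row of 1 symbol. The alternative without the muscle isoforms, and Cox8b minus Cox8a at the exon level, were chosen after seeing the data. In the simulated data, with 2 samples per stage and few changed rows, most changes of 1 were not called. In the real fit some changes near 1 were called, such as that of Cyc1 at day 14 against day 7.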
